A study of Mus musculus with 22 samples.

Results

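The immune fraction of the juvenile mouse lung at postnatal day 28 (P28) was compared with the endothelial and epithelial fractions of the same age. The libraries were chosen by their labels and not by any measured value: 2 immune, 2 endothelial and 2 epithelial libraries, 6 of the 22 in the series. Whole lungs of wild-type C57BL6 mice were dissected and sorted, per the library descriptions, for CD45 (immune), CD31 (endothelial) or CD326 (epithelial), so the groups differ in the sorted antigen and share strain, genotype, age and sequencing run. No added allele or agent is labelled for any group. The other 16 libraries are endothelial and epithelial fractions at embryonic days 16.5 (E16.5) and 18.5 and postnatal day 7 (P7), and immune fractions at E16.5 and P7, with 2 libraries a group. The labels do not say whether a library is 1 mouse or a pool, so p-values below measure only the spread between libraries, which may be technical. Each library's deposited values sum to 228405 and their unit is not stated, so a level is given as a relative expression value and is compared between libraries within a gene, never between genes.

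CD45, encoded by Ptprc, is a tyrosine phosphatase on the surface of nearly all nucleated blood cells, and antibodies against it separate leukocytes from the cells that build the organ. In the lung, the leukocytes include alveolar macrophages that clear surfactant in the airspaces, interstitial macrophages, monocytes and neutrophils from the blood, dendritic cells that carry antigen to lymph nodes, and B, T and natural killer (NK) cells. Many of their receptors have no signalling tail of their own and pair with small adaptor chains such as Tyrobp (DAP12) and Fcer1g, whose immunoreceptor tyrosine-based activation motifs (ITAMs) recruit the kinases Syk and Zap70. The transcription factor PU.1, encoded by Spi1, is a main regulator of myeloid and B cell genes.

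The promoters of genes on both sides of the comparison were searched for letters that PU.1 is known to bind. Spi1 itself was at 4.91 and 20.2 in the immune, 0.0419 and 0.0325 in the endothelial and 0 and 0.0138 in the epithelial libraries. Each window ran from 250 bases before to 50 bases after a RefSeq gene start (GRCm38.p6), and GAGGAAGT was searched on both strands. It stood in 6.55% of the windows of genes called higher whose immune libraries both lay above the other 4 (128 of 1954), in 2.54% of those called lower and below (51 of 2010), and in 3.42% of all windows of tested genes (360 of 10523). Among all 32851 windows of the table the share was 3.20%. The same shares for TGTGGT (RUNX) were 14.8%, 11.5% and 12.6%, those for TTGCNNAA (C/EBP) 10.5%, 8.41% and 8.67%, and those for GAAA followed 2 bases later by GAAA (IRF) 3.94%, 1.84% and 3.14%. A match is a description of the letters and not of a bound site. The stretches below, 100 bases each on the plus strand, which is the strand of all 4 genes, hold the PU.1 letters (capitals) before 3 genes that were higher in the immune fraction and before 1 that was lower. S100a8 encodes a calcium-binding protein of neutrophils and monocytes, Mmp8 the neutrophil collagenase and Pf4 a platelet and macrophage chemokine, whereas Scgb3a1 encodes a secretoglobin of airway club cells.
S100a8: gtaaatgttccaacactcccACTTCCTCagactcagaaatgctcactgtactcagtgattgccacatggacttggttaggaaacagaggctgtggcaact
Mmp8: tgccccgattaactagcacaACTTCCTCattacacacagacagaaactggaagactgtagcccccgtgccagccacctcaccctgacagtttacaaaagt
Pf4: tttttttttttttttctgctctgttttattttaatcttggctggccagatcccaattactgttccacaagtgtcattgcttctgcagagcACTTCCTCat
Scgb3a1: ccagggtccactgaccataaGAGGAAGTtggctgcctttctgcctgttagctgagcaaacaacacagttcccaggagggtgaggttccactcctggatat

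The S100a8 stretch lies at chr3:90668879-90668978 with the first capital at position -172 from the RefSeq start, the Mmp8 stretch at chr9:7558188-7558287 with position -221, the Pf4 stretch at chr5:90772335-90772434 with position -10 and the Scgb3a1 stretch at chr11:49663486-49663585 with position -89. In the first 3 the capitals read as the reverse complement of the searched letters, and in Scgb3a1 they read as searched. The relative expression of Mmp8 was 9.05 and 20.3 in the immune libraries, 0.158 and 0.184 in the endothelial and 0.0179 and 0.013 in the epithelial libraries, a log2 difference of 3.75 ± 0.32 (adjusted p = 1.8e-07, defined below). Both immune libraries lay above the other 4. Pf4 was at 18.5 and 30.6 in the immune, 0.837 and 11.9 in the endothelial and 9.87 and 5.08 in the epithelial libraries (1.98 ± 0.55, adjusted p = 0.00618), and this call was lost without immune replicate 2. Scgb3a1 was at 2.7 and 66.7, 57.2 and 10.5 and 936 and 734 (-3.21 ± 0.86, adjusted p = 0.00531), so that immune replicate 2 lay above both endothelial libraries. That call was lost without immune replicate 1 (log2 difference -1.11, adjusted p = 0.239).

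The labels were read against the sorting antigens. Ptprc (chromosome 1, 138062861 to 138175708, minus strand, GRCm38) was at 32.1 and 55.3 in the immune libraries, 43.7 ± 16.4 (SD, n = 2), against 0.13 and 0.261 in the endothelial and 0.0593 and 0.0174 in the epithelial libraries. Tyrobp (chromosome 7, 30413760 to 30417585, plus strand) was at 128 and 501 in the immune libraries, 0.489 and 2.11 in the endothelial and 0 and 0.241 in the epithelial libraries. Pecam1, which encodes CD31, was at 2.31 and 1.17 in the immune, 86.1 and 75.1 in the endothelial and 0.599 and 0.32 in the epithelial libraries. Epcam, which encodes CD326, was at 1.76 and 2.37, 2.68 and 5.57 and 34.5 and 25.6 in the same order. Each antigen was highest in both libraries sorted for it.

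**Figure D1:**
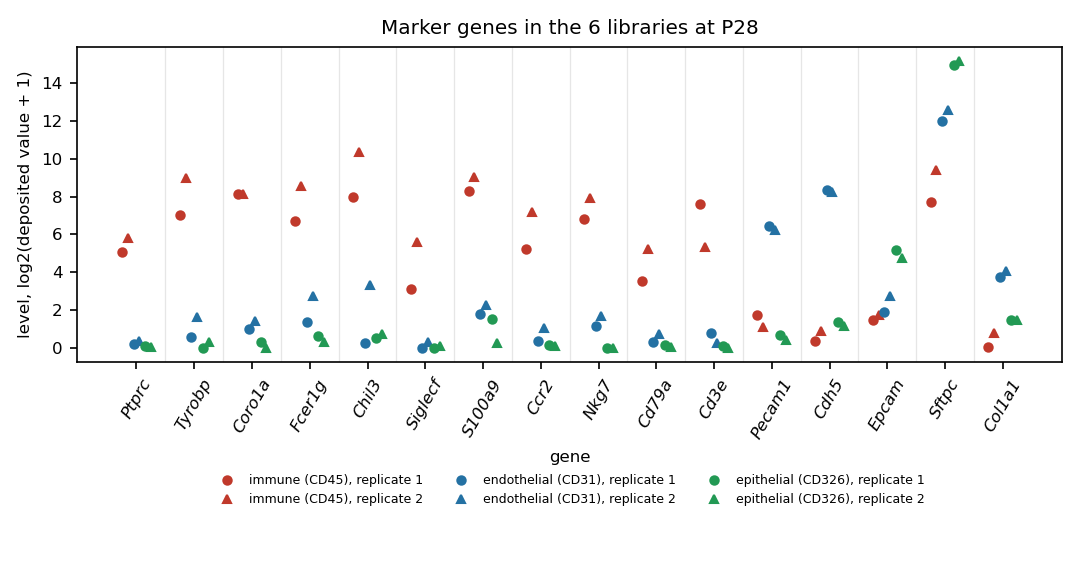
Relative expression of 16 marker genes, in log2(value + 1), in the 6 P28 libraries; colour gives the sorted fraction, circles replicate 1 and triangles replicate 2. Ptprc, Tyrobp, Coro1a and Fcer1g lie highest in the 2 immune libraries, Pecam1 and Cdh5 in the endothelial and Epcam and Sftpc in the epithelial libraries, and Cd3e is higher in immune replicate 1 (191) than in replicate 2 (39.0).

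Markers of cells outside the sort were low in the immune libraries but not absent. The summed level of 14 endothelial identity genes was 6.09 and 10.3 in the immune libraries against 2579 and 2203 in the endothelial libraries, with Emcn and Sox17 listed at 0 in replicate 1. The 14 epithelial identity genes summed to 18.6 and 68 in the immune libraries and to 3051 and 2924 in the epithelial libraries, and the endothelial libraries held 360.1 and 642. The mesenchymal list summed to 4.38 and 29.9 in the immune libraries and to 641 and 643 in the endothelial libraries, and the red blood cell list to 2.11 and 24.6. Each of these sums was higher in immune replicate 2. Cells and RNA of other types cannot be told apart in bulk libraries from transcripts of the sorted cells, and likewise fewer cells of a type cannot be told apart from less RNA per cell.

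The 2 immune libraries stood further apart than the replicates of the other fractions. Pearson's correlation of log2(value + 1) across tested genes was 0.892 between the immune libraries, 0.978 between the endothelial and 0.968 between the epithelial libraries. It lay between 0.568 and 0.622 between an immune library and a library of another fraction. Among 3222 genes at 10 or more in either immune library, 128 were more than 4-fold higher in replicate 1 and 195 in replicate 2 (10.02% in all). For the endothelial replicates this held for 10 and 6 of 3326 genes, and for the epithelial replicates for 7 and 0 of 2134.

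The genes with the largest ratio toward immune replicate 1 were led by Rag1 (chromosome 2, 101638282 to 101649501, minus strand) and Rag2, the recombinase that assembles antigen receptor genes in lymphocyte precursors. Rag1 was at 429.7 in replicate 1 and 0.727 in replicate 2, and Rag2 at 95.9 and 0.114. Dntt, the template-independent polymerase of antigen receptor joining, was at 86.2 and 0.161, and Ptcra, the pre-T-cell receptor alpha chain, at 16.6 and 0.0275. Cd8a was at 456 and 36.8, Cd4 at 71.0 and 10.5 and Ccr9, a homing receptor for thymus and gut, at 71.6 and 4.44. Genes of immature thymic T cells were thus far higher in replicate 1 than in replicate 2.

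A list of 12 T cell precursor genes, chosen after these values were seen and therefore not tested, summed to 914 in immune replicate 1 and 44.5 in replicate 2, and 11 of its 12 genes were higher in replicate 1. Other libraries held small amounts of the same transcripts: Rag1 was at 2.56 in endothelial replicate 1 against 0.0182 in replicate 2, and at 0.655 against 0 in the epithelial libraries. Of 4 thymic epithelium genes, also chosen after values were seen, Psmb11 was at 3.05 and 0.0307 and Prss16 at 3.86 and 0.0517 in the epithelial replicates, and the list summed to 0.481 and 0.537 in the immune libraries. The 3 replicate 1 libraries at P28 carry 1 shared description code. The rest of the 10 largest ratios toward replicate 1 were those of the histone genes Hist1h4m, Hist1h4f and Hist1h1a, the T cell factor Tcf7, the imprinted RNA H19 and Endou. The part of these transcripts in the results below was not tested, and counts are therefore also given without immune replicate 1.

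The largest ratios toward immune replicate 2 were those of Scgb3a1, Hbb-bs, Hbb-b1, Lpl, Scgb3a2, Ppbp, Cd300a, Mfap4, Ear6 and Sowahc. Scgb3a1 and Scgb3a2 are club cell secretoglobins, Hbb-bs and Hbb-b1 adult beta globins and Ppbp a platelet chemokine. Lpl, the lipase that alveolar macrophages express, was at 10.2 and 108 in the immune libraries, and Cd300a, an inhibitory receptor of myeloid cells, at 9.8 and 80.6. The alveolar macrophage list summed to 1464 in replicate 1 and 7453 in replicate 2, the T cell list to 1159 and 150.1 and the cell cycle list to 2423 and 630.3. All 14 alveolar macrophage genes were higher in replicate 2, whereas all 16 T cell genes and all 26 cell cycle genes were higher in replicate 1.

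**Figure D2:**
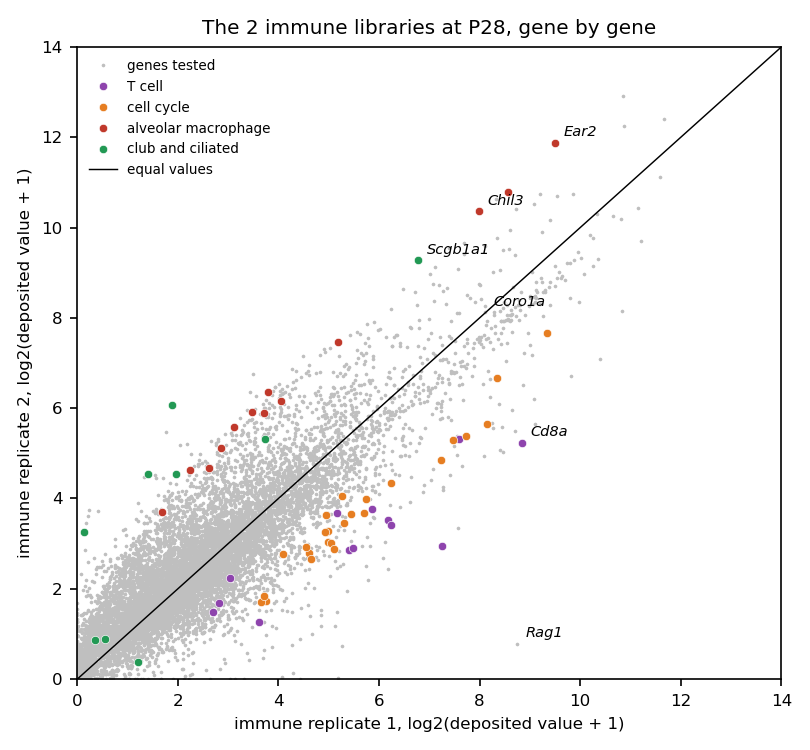
Relative expression in immune replicate 2 against immune replicate 1, in log2(value + 1), 1 point per tested gene, with T cell, cell cycle, alveolar macrophage and club and ciliated genes coloured and the line of equal values drawn. T cell and cell cycle genes lie on the replicate 1 side (Rag1 429.7 against 0.727), alveolar macrophage genes on the replicate 2 side (Ear2 722 against 3772), and Coro1a (276 and 277) on the line.

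In the comparison of the immune libraries with the mean of the other fractions, 2938 of 11126 tested genes were higher in the immune fraction (26.4%) and 3077 were lower (27.7%). Values here and below are log2 differences of log2(value + 1) ± SE with p-values from limma, with Benjamini-Hochberg adjustment over all tested genes with a threshold of 0.05. A gene was tested when its value reached 1 in at least 2 of the 6 libraries, and since the pseudocount of 1 pulls low genes toward 0, their differences are understated. A gene that passed only through the immune libraries had to differ, so counts over lists are a description and not support. Both immune libraries lay above the other 4 for 2258 genes (20.3%) and below them for 2237 (20.1%). The median difference over all tested genes was 0.05. A fit that leaves out 1 library has only 1 library left in that group, and its p-values take their spread from the other groups. Without 1 immune library they hold no spread between immune libraries at P28, which stood further apart than the other P28 replicates. A call kept in such a fit is therefore a description and not a test of that spread. Without immune replicate 1, 2533 genes were higher (22.8%) and 2525 lower (22.7%).

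The largest differences toward the immune fraction belonged to secreted and surface products of macrophages and neutrophils and to general leukocyte genes. Ear2 and Ear1 encode eosinophil-associated ribonucleases that alveolar macrophages also express, and are close copies whose reads can be shared. Ear2 was at 722 and 3772 in the immune libraries, 1.84e-10 and 18.6 in the endothelial and 2.87 and 3.4 in the epithelial libraries (8.59 ± 0.91, adjusted p = 1.48e-06). Ear1 was at 378 and 1775, 0.605 and 11.6 and 2.47 and 0.465 (8.01 ± 0.72). Chil3 (chromosome 3, 106147554 to 106167564, minus strand), the chitinase-like protein Ym1, was at 253 and 1318, 0.209 and 9.05 and 0.445 and 0.684 (7.96 ± 0.69, adjusted p = 1.88e-07). In all 3 genes immune replicate 2 was above replicate 1, and both lay above every other library.

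Coro1a (chromosome 7, 126699773 to 126707787, minus strand), an actin regulator of blood cells, was among the steadiest: 276 and 277 in the immune libraries, 0.998 and 1.67 in the endothelial and 0.214 and 0 in the epithelial libraries (7.44 ± 0.28, adjusted p = 3.44e-11). Tyrobp differed by 7.36 ± 0.43 (adjusted p = 3.8e-09) and the chemokine gene Ccl6, at 137 and 560.2 in the immune libraries, by 7.27 ± 0.49 (adjusted p = 1.46e-08). Cd52, a small glycoprotein of lymphocytes and myeloid cells, was at 225 and 346 in the immune libraries and at no more than 2.70 elsewhere (7.2 ± 0.39). S100a9 and S100a8, which form calprotectin, were at 308 and 518 and at 416 and 676 in the immune libraries (7.19 ± 0.31 and 7.18 ± 0.57). Nkg7, a granule membrane protein of cytotoxic cells, was at 109.8 and 246 in the immune, 1.19 and 2.22 in the endothelial and 0 in both epithelial libraries (6.67 ± 0.57). Laptm5, a lysosomal protein of blood cells (6.48 ± 0.30), and Mcemp1, a myeloid membrane protein (6.42 ± 0.44), completed the 12 largest. All 12 kept their call when any 1 of the P28 libraries was left out.

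**Figure D3:**
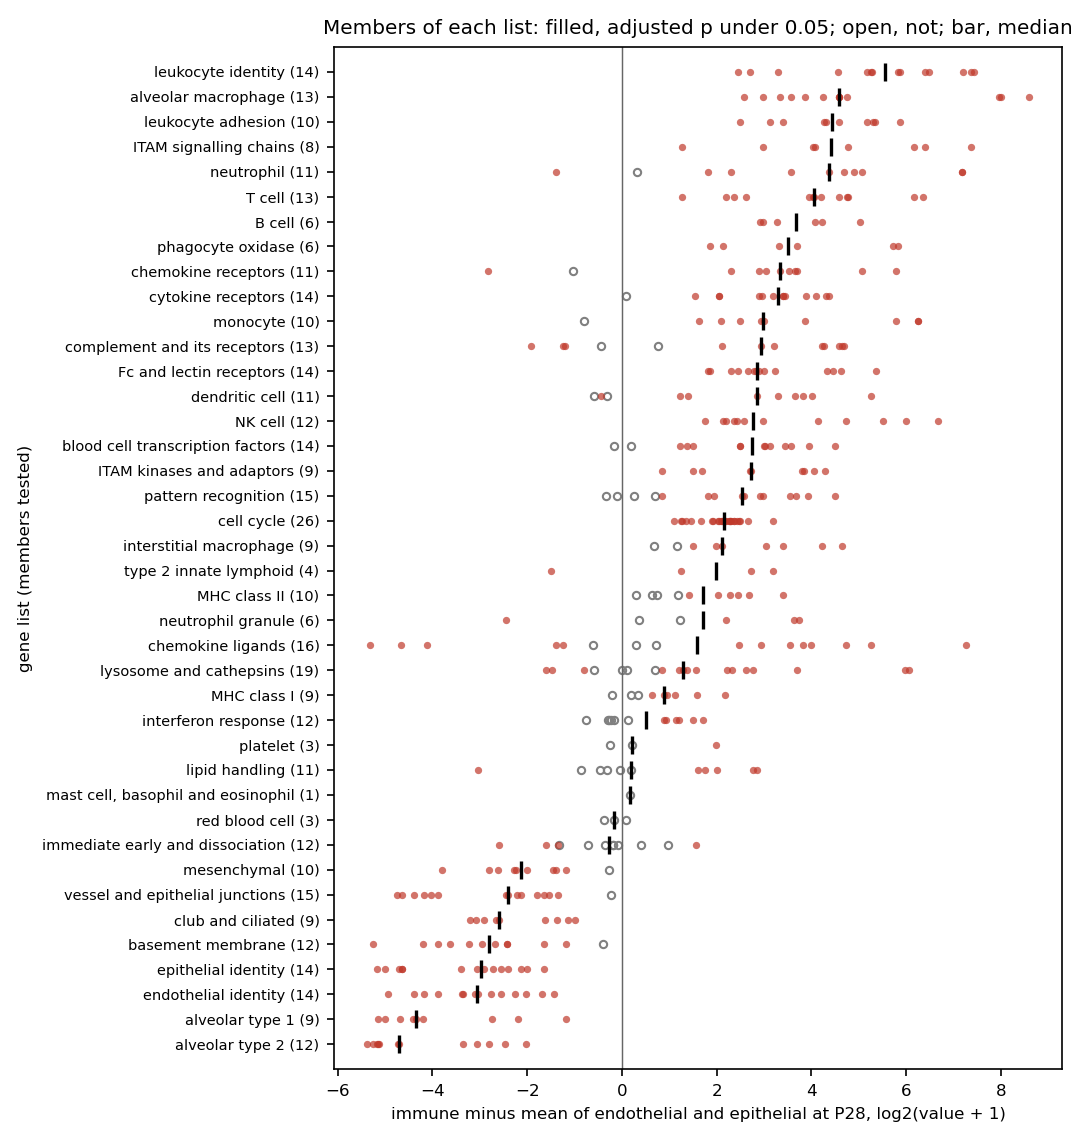
Log2 difference (immune minus the mean of the other fractions) of each tested member of 40 gene lists; filled points have an adjusted p under 0.05, open points do not, and the bar marks the list's median. Lists of blood cell genes lie mostly above 0 (leukocyte identity median 5.56) and lists of endothelial, epithelial and matrix genes below it (alveolar type 2 median -4.71), whereas MHC, interferon, lipid and immediate early lists spread over both sides.

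The leukocyte identity list, 14 genes used by nearly all blood cells, was higher in 14 of 14 tested members, with a median difference of 5.56. It holds Ptprc (5.28 ± 0.22, adjusted p = 7.2e-11), the tetraspanins Cd53 and Cd37, the GTPase Rac2 (75.3 and 75.6 in the immune libraries, 5.84 ± 0.19) and the integrin chain Itgb2 (39.7 and 125, 5.87 ± 0.32). The member with the smallest difference was Lcp1, an actin bundler (31.8 and 78.3 in the immune libraries, 6.32 and 8.97 in the endothelial and 8.46 and 9.97 in the epithelial libraries, 2.45 ± 0.29, adjusted p = 4.35e-06). Both immune libraries lay above the other 4 in all 14, where 20.3% of tested genes did so. All 14 kept their call whichever P28 library was left out.

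Adaptor chains that carry ITAMs were higher in 8 of 8 tested members (median 4.42), and both immune libraries lay above the others in all 8. Fcer1g, the gamma chain of Fc receptors, was at 103 and 380.0 in the immune, 1.61 and 5.58 in the endothelial and 0.528 and 0.218 in the epithelial libraries (6.39 ± 0.45, adjusted p = 2e-08). T cell chains went the opposite way to myeloid and B cell chains between the immune replicates. The B cell receptor chains Cd79a (10.5 and 37) and Cd79b (21.6 and 75.7) were higher in replicate 2, like Tyrobp and Fcer1g. The T cell receptor chains Cd3e (191 and 39), Cd3d (57.1 and 12.7), Cd3g (41.4 and 6.26) and Cd247 (5.5 and 1.82) were higher in replicate 1. Leaving out immune replicate 1, 7 of the 8 were called, Cd247 not among them (0.67, adjusted p = 0.0902).

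Kinases and adaptors that act on these chains were higher in 9 of 9 tested members (median 2.73), and 8 kept their call in every fit that left out 1 library. Syk, the kinase of myeloid and B cell receptors, was at 4.49 and 16.8 in the immune, 1.09 and 1.13 in the endothelial and 0.0496 and 0.0619 in the epithelial libraries (2.73 ± 0.30). Zap70, its counterpart in T and NK cells, was at 3.51 and 1.1, 0.151 and 0.0488 and 0.0857 and 0.0682 (1.5 ± 0.23), and Lck, the kinase that acts before it, at 44 and 6.5, 0.356 and 0.073 and 0.00712 and 0.0103 (4.06 ± 0.71). Syk was higher in replicate 2 and Zap70 and Lck in replicate 1. Btk, Blk, Blnk and Plcg2 fell under the limit on low values and were not tested. Fc, lectin and related receptors of myeloid cells were higher in 14 of 14 tested members (median 2.86), each kept its call in every such fit, and every one was higher in replicate 2. The list holds receptors that pair with these chains, Clec7a, which signals through its own tail, and inhibitory receptors such as Pilra and Cd300a. Among them, Clec7a (dectin-1, a receptor for fungal glucans) was at 19.4 and 111.9 in the immune and at most 0.587 in the other libraries (5.36 ± 0.44), Pilra at 13.1 and 62.7 (4.62 ± 0.40) and Fcgr3 at 11.7 and 46.1 (4.33 ± 0.35).

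Genes of alveolar macrophages were higher in 13 of 13 tested members (median 4.58), with Pparg untested, and all 13 kept their call in every fit that left out 1 library. Siglecf, the sialic acid lectin by which these cells are sorted, was at 7.68 and 46.8 in the immune, 0 and 0.252 in the endothelial and 0 and 0.0481 in the epithelial libraries (4.25 ± 0.41, adjusted p = 5.72e-07). Fabp1, a fatty acid binding protein, was at 15.55 and 70.8, 0.258 and 0.599 and 0.316 and 0 (4.76 ± 0.48), and the scavenger receptor Marco at 3.7 and 23.9, 0.0694 and 0.188 and 0.0059 and 0.0213 (3.34 ± 0.39). Their summed level was 6.16 and 48.5 in the endothelial libraries and 17.3 and 13.2 in the epithelial libraries. Interstitial macrophage genes were higher in 7 of 9 tested members (median 2.10), and 5 kept their call in every fit. The complement chain C1qc was at 21.1 and 36, 0.0851 and 0.527 and 0 and 0.0419 (4.64 ± 0.30) and the growth factor receptor Csf1r at 15.3 and 77.5, 1.38 and 4.83 and 1.82 and 2.47 (3.39 ± 0.45). Apoe (1.16, adjusted p = 0.0581) and Mertk (0.68, adjusted p = 0.102) did not pass, but did without immune replicate 1 (1.92 and 1.61, adjusted p = 0.013 and 2.41e-05).

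Monocyte genes were higher in 9 of 10 tested members (median 2.97). The chemokine receptor Ccr2, which brings monocytes out of the bone marrow, was at 35.8 and 142 in the immune, 0.266 and 1.03 in the endothelial and 0.104 and 0.0562 in the epithelial libraries (5.78 ± 0.38, adjusted p = 1.15e-08), and Ifitm6 at 53.1 and 232, 0.245 and 1.71 and 0 and 0.362 (6.26 ± 0.46). Ace, the angiotensin-converting enzyme of patrolling monocytes and of lung capillaries, was at 8.41 and 54, 455 and 418 and 3.43 and 1.88, with no call (-0.80, adjusted p = 0.24) except as lower without immune replicate 2 (-2.07, adjusted p = 0.00308). Neutrophil genes were higher in 9 of 11 tested members and lower in 1 (median 4.37). The granulocyte receptors Csf3r (10.3 and 47.3 in the immune libraries, 4.37 ± 0.38) and Cxcr2 (32.9 and 110.99, 5.08 ± 0.43) were among the higher members. The lower one was Hdc, histidine decarboxylase (1.17 and 3.2 in the immune, 2.86 and 4.02 in the endothelial and 11.6 and 15.4 in the epithelial libraries, -1.4 ± 0.34, adjusted p = 0.00281), a call lost without immune replicate 1.

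Granule proteins made by neutrophil precursors went another way than the neutrophil list between the replicates. Ngp was at 52.4 in immune replicate 1 and 4.70 in replicate 2 (3.63 ± 0.58, adjusted p = 8.4e-05) and Camp at 8.85 and 1.49 (2.2 ± 0.35, adjusted p = 7.4e-05). Of 6 tested members 3 were higher and 1 lower (median 1.71), and 8 of the 10 were higher in replicate 1. The median was 0.57 without immune replicate 1 and 2.86, with 5 higher, without replicate 2. The lower member, Lcn2, is also an epithelial secretory protein and was at 26.2 and 23.7 in the immune, 48.4 and 84.5 in the endothelial and 282 and 339.6 in the epithelial libraries (-2.45 ± 0.51). Of the mast cell, basophil and eosinophil list only Prg2 of 11 genes was tested, with no call (0.18, adjusted p = 0.754).

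Functions of phagocytes were higher as well. All 6 tested genes of the phagocyte oxidase, which makes superoxide, were called (median 3.51), led by Rac2 and by Cybb at 29.1 and 157 in the immune, 0.132 and 0.987 in the endothelial and 0.143 and 0.0919 in the epithelial libraries (5.73 ± 0.44, adjusted p = 4.79e-08). Of 19 lysosome genes 12 were higher and 3 lower (median 1.29). The lysosomal glycoprotein Cd68 was at 167 and 751, 5.01 and 9.43 and 2.12 and 4.06 (5.98 ± 0.49) and cathepsin S, Ctss, which trims the MHC class II chaperone, at 41.7 and 195, 0.134 and 1.22 and 0.298 and 0.066 (6.07 ± 0.44). The lower members were Ctsh (-1.47, adjusted p = 0.0324), Npc2 (-1.61, adjusted p = 0.000329) and Lamp2 (-0.80, adjusted p = 0.04). Ctsh helps to process surfactant proteins, and Npc2 carries cholesterol out of the lysosome. The calls of Ctsh and Lamp2 were lost without immune replicate 1, endothelial replicate 2 or epithelial replicate 1. Without immune replicate 1 the counts were 14 higher and 1 lower (median 2.07), and without replicate 2 they were 7 and 4 (median 0.59).

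Lyz2, a bactericidal enzyme of macrophages and of alveolar type 2 cells, was at 1837 and 7693 in the immune, 1853 and 2908 in the endothelial and 10033 and 14945 in the epithelial libraries. The epithelial libraries were the highest and the difference from the mean of both fractions was -0.50 ± 0.45 (adjusted p = 0.367), with a lower call only without immune replicate 2 among the fits that left out 1 library (-1.54, adjusted p = 0.0057). Complement genes and receptors were higher in 8 of 13 tested members and lower in 3 (median 2.95). Receptors and C1q chains made up the higher side, such as C5ar1, the receptor for the C5a fragment (12.8 and 55.3 in the immune libraries, 4.68 ± 0.35). The lower members were the soluble components C2, C3 and C4b; C3, for example, was at 15.3 and 55.9 in the immune, 54.8 and 149.9 in the endothelial and 42.1 and 73.6 in the epithelial libraries (-1.25 ± 0.50, adjusted p = 0.0451), a call lost without immune replicate 1, endothelial replicate 2 or epithelial replicate 2. Without immune replicate 1, 1 of these 3 lower calls was left.

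The B, NK and T cell lists were higher in every tested member. For B cells that was 6 of 6 (median 3.68). Immunoglobulin heavy chain genes Ighm and Ighd were not analysed here, and Ebf1 and Pax5 were not tested. The NK cell list had 12 of 12 called (median 2.78), and both immune libraries lay above the others in all 12. Granzyme A, Gzma, was at 50.8 and 91.1, 0.074 and 0.201 and 0 and 0.0365 (6.01 ± 0.48, adjusted p = 7.75e-08) and granzyme B, Gzmb, at 22.4 and 109, 0 and 0.362 and 0.106 and 0.0383 (5.51 ± 0.46). Il2rb, the receptor chain through which interleukins 2 and 15 signal, was at 13.9 and 21 in the immune libraries (4.13 ± 0.17).

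T cell genes were higher in 13 of 13 tested members (median 4.06) and above the other 4 libraries in all 13, with T cell precursor transcripts high in replicate 1 as described above. The count was 10 of 13 and the median 2.76 without immune replicate 1. Cd3e was at 191 and 39 in the immune, 0.733 and 0.17 in the endothelial and 0.083 and 0 in the epithelial libraries (6.17 ± 1.00, adjusted p = 9.55e-05), and kept its call without replicate 1 (5.04, adjusted p = 0.00422). Cd5, a receptor of mature T cells, was at 7.24 and 3.73, 0.0381 and 0.0295 and 0 and 0.0125 (2.61 ± 0.21, adjusted p = 1.06e-07). Tcf7, a factor of T cell development, was at 152 and 6.68, 4.2 and 2.44 and 0.168 and 0.157 (3.95 ± 0.99, adjusted p = 0.00317) and lost its call (1.79, adjusted p = 0.141). Rag1 likewise passed in the whole set (4.12 ± 1.65, adjusted p = 0.0458) and not without replicate 1 (0.14, adjusted p = 0.947), nor without endothelial replicate 2 or either epithelial library. Of the type 2 innate lymphoid list 3 of 4 tested genes were higher, among them Il7r (8.84 and 9.34 in the immune libraries, 3.18 ± 0.34) and Icos (7.05 and 6.8, 2.72 ± 0.18), and Areg was lower (-1.5 ± 0.26, adjusted p = 0.000164).

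Dendritic cell genes were higher in 8 of 11 tested members and lower in 1 (median 2.85). Without immune replicate 1 the counts were 7 and 0 and the median 1.42, without replicate 2 the lower count was 2, and with the replicates paired by their code the counts were 8 and 2. The chemokine Ccl17, which draws memory T cells, was at 38.4 and 87.7 in the immune, 0 and 0.647 in the endothelial and 1.93 and 0.165 in the epithelial libraries (5.26 ± 0.34, adjusted p = 9.89e-09), and the lectin Cd209a at 10.1 and 23.3, 0 and 0.0734 and 0 and 0 (4.01 ± 0.37). Ccr9 lost its call without replicate 1 (1.42, adjusted p = 0.094). Clec9a, the receptor for dead cells on cross-presenting dendritic cells, was at 1.51 and 7.98, 36.6 and 24.7 and 0.068 and 0.189 (-0.32, adjusted p = 0.554), and was called lower without immune replicate 2 (-1.24, adjusted p = 0.0203). Both endothelial libraries were above both immune libraries in this gene.

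Chemokine genes split between the fractions. Of 16 tested ligands 8 were higher and 5 lower (median 1.59). The higher ones were Ccl3, Ccl5, Ccl6, Ccl9, Ccl12, Ccl17, Ccl22 and Cxcl2. Ccl5, made by NK and T cells, was at 12.4 and 71.3 in the immune, 0.224 and 0.26 in the endothelial and 0.114 and 0.0825 in the epithelial libraries (4.74 ± 0.41, adjusted p = 1.71e-07). The lower ones were Cxcl15, the lung-specific lungkine, Ccl21a, the ligand of Ccr7, Cxcl12, the ligand of Cxcr4, and Cx3cl1 and Cxcl16, which are membrane-bound. Cxcl15 was at 12.5 and 54.7, 296 and 507.4 and 3401 and 2765 (-5.31 ± 0.63), Ccl21a at 0.129 and 3.57, 717 and 1071 and 4.75 and 1.46 (-4.66 ± 0.56) and Cxcl12 at 0.0384 and 0.621, 230.3 and 277 and 0.814 and 1.24 (-4.12 ± 0.44). The calls of Cx3cl1 and Cxcl16 were lost without immune replicate 1.

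Receptors were mostly on the immune side. Of 11 tested chemokine receptors 9 were higher and 1 lower (median 3.34; 2 lower with size factors or without immune replicate 2), so that Cxcr4 (94.8 and 90.7 in the immune, 23.6 and 48 in the endothelial and 1.05 and 0.795 in the epithelial libraries, 3.52 ± 0.31) and Ccr7 (12.1 and 14.4, 0.0243 and 0.132 and 0.414 and 0.012, 3.65 ± 0.20) were higher while their ligands were lower. The lower receptor was Ackr3, which scavenges Cxcl12 (0.112 and 0.17, 46.3 and 44.4 and 0.368 and 0.478, -2.83 ± 0.29). Cytokine receptors were higher in 13 of 14 tested members (median 3.29), all 13 in every fit that left out 1 library. Csf2rb, the shared chain of the GM-CSF, interleukin 3 and interleukin 5 receptors, was at 15.8 and 85.2, 0.997 and 1.49 and 0.744 and 0.552 (4.31 ± 0.44). Leukocyte adhesion genes were higher in 10 of 10 (median 4.45), with the integrin Itgal at 34.7 and 81.2 (5.35 ± 0.24) in the immune libraries. Pattern recognition genes were higher in 11 of 15 tested members (median 2.54, and 1.57 with 1 lower without immune replicate 2), among them Tlr13, Tlr9, Tlr7 and Tlr2, sensors of microbial nucleic acid and lipoprotein. Tlr4, the lipopolysaccharide receptor (0.26, adjusted p = 0.596), and its co-receptors Cd14 (0.70, adjusted p = 0.272) and Ly96 (-0.11, adjusted p = 0.754) did not pass, though Tlr4 did without immune replicate 1 (1.25, adjusted p = 0.00371).

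Transcription factors of blood cells were higher in 12 of 14 tested members (median 2.75), 10 of them in every fit that left out 1 library. Ikzf1 (Ikaros), a factor of the whole lymphoid line, was at 34.8 and 22.2 in the immune, 0.237 and 0.243 in the endothelial and 0.335 and 0.28 in the epithelial libraries (4.5 ± 0.25, adjusted p = 2.44e-09). Spi1 differed by 3.45 ± 0.32 (adjusted p = 3.36e-07), and the interferon regulatory factors Irf4, Irf5 and Irf8 by 3.00, 3.12 and 3.02. Cebpa (-0.17, adjusted p = 0.8) and Klf2 (0.19, adjusted p = 0.8) did not pass, and Cebpa was called lower without immune replicate 2 (-1.3, adjusted p = 0.0401). Klf2 was at 196 and 197 in the endothelial libraries and 21.5 and 69 in the immune libraries.

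Cell cycle genes were higher in 26 of 26 tested members (median 2.15), and all 26 were higher in immune replicate 1 than in replicate 2. Mki67, the proliferation antigen, was at 327 and 100.1 in the immune, 58.4 and 44.7 in the endothelial and 31.3 and 11.9 in the epithelial libraries (2.48 ± 0.40, adjusted p = 8.98e-05). Rrm2, a ribonucleotide reductase subunit, was at 210.2 and 40.7, 16.3 and 9.75 and 11.5 and 3.67 (3.2 ± 0.50) and Top2a, the topoisomerase of dividing cells, at 149 and 28, 19.2 and 11.3 and 9.7 and 3.36 (2.67 ± 0.48). Without replicate 1 the count was 20 of 26 and the median 1.27, and against the endothelial libraries alone it went from 24 to 7. The T cell precursor list was also highest in replicate 1, at 914 against 44.5, and its part in the cell cycle values was not tested.

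The 12 largest differences toward the other fractions were those of Adamts1, Adgrf5, S100a16, Prrg3, Sdpr, Slc34a2, Hspb1, Cxcl15, Sparc, Scd1, Epas1 and Sftpb. Adgrf5, an adhesion receptor of lung capillaries and type 2 cells, was at 0.256 and 1.37 in the immune, 227 and 230.2 in the endothelial and 50.2 and 37.2 in the epithelial libraries (-5.87 ± 0.32, adjusted p = 1.82e-09). Adamts1, a secreted protease, was at 0.425 and 3.15, 225 and 263 and 64.9 and 103 (-5.87 ± 0.38). Sftpb, surfactant protein B, was at 6.03 and 27.5, 144 and 244 and 1445 and 1316 (-5.17 ± 0.72, adjusted p = 2.3e-05). All 12 were higher in immune replicate 2 than in replicate 1, and both lay below the other 4 libraries.

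By list, 14 of 14 endothelial and 14 of 14 epithelial identity genes, 12 of 12 alveolar type 2, 9 of 9 alveolar type 1, 14 of 15 junction, 11 of 12 basement membrane and 9 of 10 tested mesenchymal genes were lower, where 27.7% of all tested genes were. Their medians lay between -4.71 (alveolar type 2) and -2.12 (mesenchymal). These counts are against the mean of both fractions. Against the epithelial libraries alone, 1 of 14 endothelial identity and 0 of 10 mesenchymal genes were lower. The other lists just named were lower in most members against each fraction. Of the club and ciliated genes given below, 1 of 9 was lower against the endothelial libraries alone (median 0.23). The alveolar type 2 list summed to 357 and 1280.5 in the immune, 6362 and 10114 in the endothelial and 48420 and 55345 in the epithelial libraries. Club and ciliated genes were lower in 9 of 9 (median -2.59), which were 4 and -1.34 without immune replicate 1. Scgb1a1, the main club cell secretoglobin, was at 109 and 620.2 in the immune, 186 and 78.4 in the endothelial and 24754 and 16694 in the epithelial libraries (-2.59 ± 0.71, adjusted p = 0.00618). That call was lost without immune replicate 1 (-1.34, adjusted p = 0.183), and replicate 2 lay above both endothelial libraries. Lipid handling genes had 5 higher and 1 lower of 11 tested (median 0.19, 0.85 without immune replicate 1 and -0.47 with 2 lower without replicate 2); the lower one was the fatty acid receptor Cd36 (1.6 and 8.73, 61.5 and 61.1 and 28.3 and 25.2, -3.05 ± 0.35). Of 12 immediate early genes, which dissociation of tissue can induce, 1 was higher and 3 lower (0 and 2 without immune replicate 1, and 0 higher without replicate 2), and Jun was at 53.2 and 52.8, 1007 and 628 and 216 and 82.9 (-2.6 ± 0.32).

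Because a mean over 2 fractions can hide a gene that is high in one of them, each fraction was also set against the immune libraries alone. These comparisons share the immune libraries and are given side by side. Against the endothelial libraries 1738 genes were higher in the immune fraction (16%) and 3646 lower (32.8%). Against the epithelial libraries 4389 were higher (39.4%) and 1967 lower (17.7%). Much of that imbalance followed the scale: the median difference over all genes was -0.23 and 0.36 as deposited, and 0.04 and 0.05 after division by size factors, with which the counts were 2707 and 2920 against the endothelial and 3005 and 2870 against the epithelial libraries. Leaving out immune replicate 1, the shares higher and lower were 14.3% and 27.6%, and 36% and 15%.

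Leukocyte identity genes were higher in 14 of 14 against either fraction, on both scales. MHC class II genes, which present antigen to helper T cells, were higher in 9 of 10 tested members against the endothelial libraries (5 without immune replicate 2) and in 5 of 10 against the epithelial libraries. Against their mean 6 of 10 were higher (median 1.72), 9 without immune replicate 1, and the median was 1.12 without replicate 2. H2-Aa was at 146 and 422 in the immune, 52.1 and 62.7 in the endothelial and 206 and 209 in the epithelial libraries, and its difference from the mean (1.18 ± 0.53, adjusted p = 0.0727) did not pass, but did without immune replicate 1 (1.94, adjusted p = 0.0205) and with the replicates paired by code (adjusted p = 0.0452). Cd74, the invariant chain, was at 189 and 540.4, 82.7 and 91.6 and 519 and 447. It differed by 1.87 from the endothelial (adjusted p = 0.0141, lost without either endothelial library or immune replicate 2) and by -0.59 from the epithelial libraries (adjusted p = 0.406). Replicate 1 lay below and replicate 2 above both epithelial libraries. The members higher against both fractions were H2-Eb1, H2-DMa, H2-DMb2, H2-Oa and H2-Ob, of which H2-Ob, a chain that tempers peptide loading in B cells, was at 7.44 and 38.3, 2.08 and 1.32 and 0.206 and 0 (3.41 ± 0.43, adjusted p = 8.79e-06). Some genes of the H2 family are close in sequence, and reads can be shared between those.

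MHC class I genes, which present peptides to CD8 T cells, were higher in 6 of 9 members against the mean (median 0.88, and 0.51 with 1 lower without immune replicate 2). Against the epithelial libraries 9 of 9 were higher (8 with size factors), and against the endothelial libraries 1 was higher and 2 lower (4 lower without immune replicate 2). The higher one was the immunoproteasome subunit Psmb8, at 144 and 100.1 in the immune, 59.2 and 54.4 in the endothelial and 13.3 and 10.04 in the epithelial libraries (against endothelial 1.07, adjusted p = 0.0257), a call lost without either endothelial library or immune replicate 1. The lower ones were Tapbp, the peptide-loading chaperone tapasin (16 and 26.7, 40.9 and 53.6 and 10.8 and 13.8; -1.14, adjusted p = 0.000898), and H2-K1 (352 and 729, 910.4 and 844 and 209.9 and 232; -0.79, adjusted p = 0.0448). H2-K1 did not pass with size factors (-0.43, adjusted p = 0.248), nor without either endothelial library or immune replicate 1. B2m, the shared light chain, was at 925 and 1722, 2079 and 2057 and 264 and 161. Over all tested genes 16% were higher and 32.8% lower against the endothelial libraries. The counts of 1 higher and 2 lower of 9 class I members did not exceed these shares. Against the epithelial libraries fewer than 9 were higher without immune replicate 2, and the median was 1.45 where it was 1.64 with both.

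Interferon response genes were higher in 6 of 12 against the mean (median 0.50; 1 lower with the replicates paired). Against the endothelial libraries 2 were higher (4 with size factors, 1 with the replicates paired) and 6 lower (4 without immune replicate 1), and against the epithelial libraries 9 were higher and 0 lower. Over all tested genes 16% were higher and 32.8% lower against the endothelial libraries, so the 2 higher members lay near the background share. Against the epithelial libraries 39.4% of all tested genes were higher and 17.7% lower. With size factors 7 of the 12 interferon genes were higher there. The 6 lower against endothelium were Ifit1, Ifit3, Isg15, Oasl2, Usp18 and Bst2. Isg15, a ubiquitin-like modifier, was at 11.5 and 6.03 in the immune, 20.7 and 32.6 in the endothelial and 2.19 and 1.4 in the epithelial libraries (against endothelial -1.52, adjusted p = 0.00372; lost without endothelial replicate 2). Mx1, an antiviral GTPase, was at 1.2 and 5.26, 0.217 and 0.155 and 0.0908 and 0.0822 (1.65 and 1.77 against endothelial and epithelial, adjusted p = 0.000394 and 0.000202). The summed level of the list was 84.4 and 109.6 in the immune, 212 and 217 in the endothelial and 30.1 and 18.2 in the epithelial libraries.

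A few genes known from blood cells were as high or higher in the endothelial libraries. Il2rg, the common cytokine receptor chain, was at 252 and 177 in the immune, 226 and 182 in the endothelial and 1.79 and 0.41 in the epithelial libraries, 0.06 from the endothelial (adjusted p = 0.94) and 6.74 from the epithelial libraries (adjusted p = 1.27e-07). Ace (-4.27, adjusted p = 4.7e-05), Clec9a (-2.71, adjusted p = 0.000287) and Klf2 (-2.32, adjusted p = 0.00964) were lower in the immune than in the endothelial libraries, the call of Klf2 being lost without immune replicate 1. Pecam1 was lower than in the endothelial libraries (-4.93, adjusted p = 2.77e-07) and did not pass against the epithelial ones (0.88, adjusted p = 0.108), but did with the replicates paired by code (adjusted p = 0.0442).

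**Figure D4:**
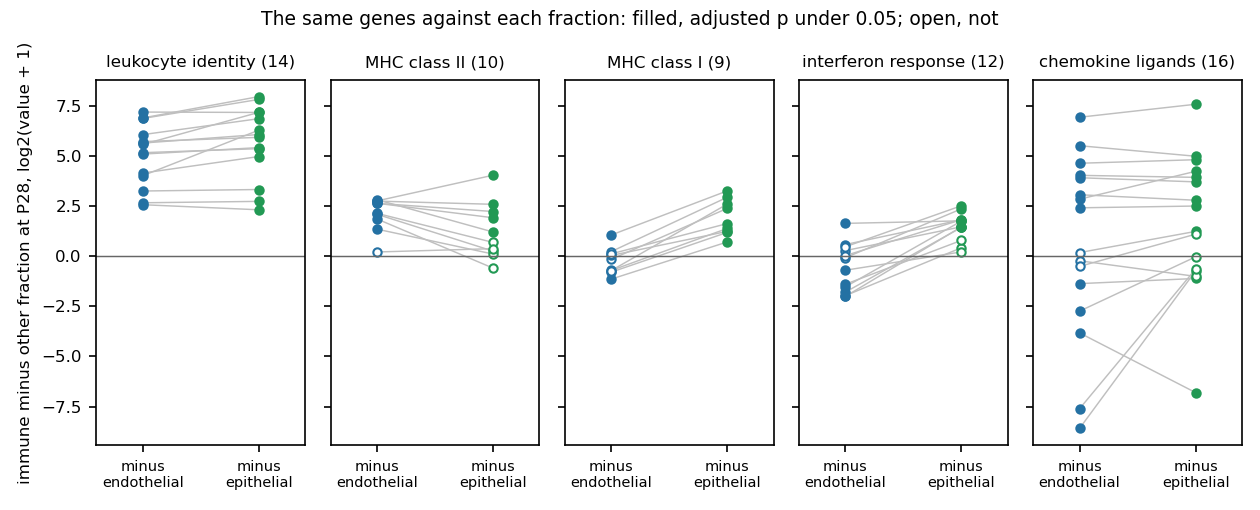
Log2 difference of the immune libraries from the endothelial and from the epithelial libraries, 1 line per gene, for leukocyte identity, MHC class II, MHC class I, interferon response and chemokine ligand genes. Leukocyte identity genes are above 0 on both sides, most MHC class I and interferon genes go from near or below 0 against endothelium to above 0 against epithelium (Isg15 -1.52 and 1.76), and Cd74 goes from 1.87 to -0.59.

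The immune difference at P28 was set against the same difference at P7 and at E16.5 by an interaction term, which tests whether the gap between immune and other fractions itself changed. At E16.5, endothelial replicate 2 and epithelial replicate 1 carry another age in their description and were taken as E16.5 by their titles. Age cannot be told apart from sequencing run here. All E16.5 libraries, and all P7 libraries except epithelial replicate 1, were in other runs than the P28 libraries. Within replicate 1 at P7 the immune and endothelial libraries were in another run than the epithelial library. The immune difference at P7 is therefore itself mixed with run. A gene can also move in this test because the other fractions moved. Against P7, 223 genes had a higher immune difference at P28 (2%) and 487 a lower one (4.38%). Without immune replicate 1 of P28 these were 126 (1.13%) and 183 (1.64%), without immune replicate 2 they were 1499 and 1951, and with the replicates paired by code 624 and 757. Against E16.5, 957 were higher (8.6%) and 1532 lower (13.8%), and 1026 (9.22%) and 1220 (11%) without immune replicate 1.

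Genes were tested on their P28 values alone, so a gene high in immune cells only at the earlier ages could not enter, and NK cell genes passed through the P28 immune libraries. The untested members include Folr2, Cd163 and Ms4a7 of the interstitial macrophage list and Elane, Prtn3 and Ctsg of the granule list. The counts of higher genes below describe the tested members under that choice.

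Against E16.5, NK cell genes had a higher immune difference in 12 of 12 tested members (11 without immune replicate 1 of P28), and 9 kept the call in every fit that left out 1 library. Ccl5 was at 0.968 and 0.322 in the immune libraries at E16.5, 5.59 and 4.6 at P7, then 12.4 and 71.3 at P28 (interaction with E16.5 4.05 ± 0.58, adjusted p = 0.000176). Alveolar macrophage genes were higher in 9 of 13 (11 without replicate 1, and 2 lower without replicate 2). Chil3 was at 1.22 and 2.96 at E16.5, 64.9 and 219 at P7, then 253 and 1318 at P28 (6.39 ± 0.98, adjusted p = 0.000296), and Siglecf at 0.475 and 0.3, 34.5 and 23.9 and 7.68 and 46.8 (3.78 ± 0.58, adjusted p = 0.000311). Ear1 had already reached 1613 and 1416 at P7 from 15 and 14.7 at E16.5. These 3 markers were at no more than 15 in the immune libraries at E16.5 and lay above their own E16.5 levels in every library of both postnatal ages, whereas Ear2 was already at 566 and 464 at E16.5 and at 2870.4 and 2996 at P7.

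B cell genes were higher than at E16.5 in 5 of 6, dendritic cell genes in 7 of 11, leukocyte adhesion genes in 7 of 10 and leukocyte identity genes in 6 of 14 (10 of 14 with size factors or without replicate 1). T cell genes were higher in 4 of 13, in 1 without replicate 1 and in 12 without replicate 2. Immune replicate 2 at E16.5 also held T cell precursor transcripts (Rag1 at 209.8 against 1.37 in its replicate, and the list at 356 against 22.4). Interstitial macrophage genes were lower in 4 of 9, with size factors in 2, and without replicate 1 in 1 of 9 with 1 higher. C1qc, for example, was at 107 and 59.2 at E16.5, 62.3 and 105 at P7, then 21.1 and 36 at P28. Granule genes of neutrophil precursors were lower in 2 of 6 against E16.5 (5 without replicate 1, 4 with the replicates paired) and in 4 of 6 against P7, where 1 kept the call in every fit that left out 1 library. Ngp was at 66.8 and 104 at E16.5, 162 and 336 at P7, then 52.4 and 4.70 at P28.

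Cell cycle genes had a higher immune difference at P28 in 8 of 26 against P7 and in 22 of 26 against E16.5. These counts were 2 and 4 without immune replicate 1, with the replicates paired 25 and 25, and without immune replicate 2 they were 26 and 26. The summed level of the list was 1577 and 2008 in the immune libraries at E16.5, 721 and 602 at P7, then 2423 and 630.3 at P28, so replicate 2 at P28 lay within the P7 range and replicate 1 above all others. Replicate 2 also lay below both E16.5 immune libraries, so the higher difference is not a higher level in both immune libraries. The other fractions moved in the histone gene Hist1h1b, named below. It went from 136 and 145 at E16.5 to 17.0 and 14.7 at P28 in the endothelial libraries. The epithelial libraries were lower at P28 as well. The part of such falls in the counts was not tested. NK cell genes were higher than at P7 in 4 of 12, 8 without replicate 1 or with size factors and 7 with the replicates paired, and none of the 4 kept its call in every fit that left out 1 library.

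Epithelial lists were on the lower side of both interactions. Alveolar type 2 genes were lower in 6 of 12 against P7 (1 without immune replicate 1, 11 without replicate 2, 9 with the replicates paired) and in 12 of 12 against E16.5, and epithelial identity genes in 7 of 14 (0 without replicate 1, 11 paired) and 14 of 14. The immune libraries themselves were lower at P28 in these lists. The epithelial identity genes summed to 866 and 675 in the immune libraries at E16.5, to 367 and 237 at P7 and, at P28, to 18.6 and 68, and the alveolar type 2 genes to 2861 and 2072, 4089 and 1419 and 357 and 1280.5. The other fractions moved as well in Sftpc, a member of the alveolar type 2 list. In the epithelial libraries Sftpc went from 3847 and 4568 at E16.5 to 32533 and 36645 at P28. In the endothelial libraries it went from 386 and 22.3 to 4069 and 6145. Lyz2 was at 2197 and 1558 in the immune libraries at E16.5 and at 1837 and 7693 at P28. Its level in the epithelial libraries went from 14.8 and 14.7 to 10033 and 14945 (interaction -7.92 ± 0.64, adjusted p = 4.06e-06). Against P7, Scgb1a1 was at 2476 and 3421 in the immune libraries at P7, then 109 and 620.2 at P28 (interaction -4.44 ± 1.01, adjusted p = 0.0192, and -3.19 with adjusted p = 0.121 without replicate 1). This call was also lost without either immune library of P7. In that gene the immune libraries themselves were lower at the later age.

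**Figure D5:**
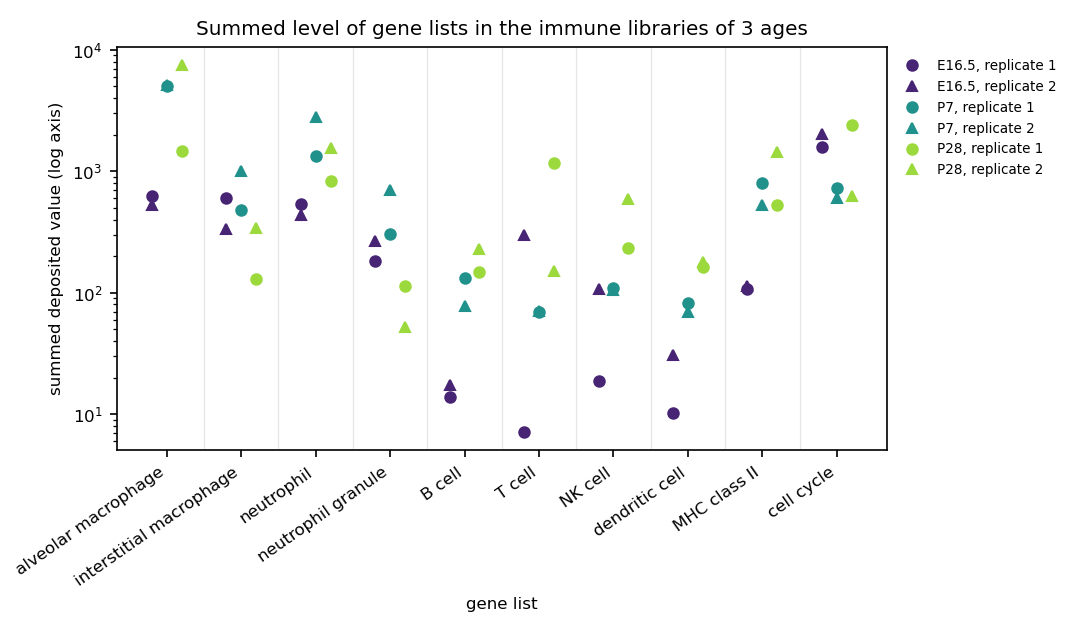
Summed relative expression of 10 gene lists in the immune libraries at E16.5, P7 and P28 on a log axis, 1 point per library. The NK cell list lies higher at P28 (233 and 588) than at P7 (109 and 105), the alveolar macrophage list higher at P7 and P28 than at E16.5, and the T cell list is far apart between the replicates at E16.5 and at P28.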

How the data were processed

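RNA of sorted lung cells was reverse transcribed and sequenced from Nextera XT libraries, per the labels' protocols. Reads were aligned with TopHat2 2.0.9 to GRCm38 (mm10), per the submitters' processing notes; the quantifier, the annotation and strand use are not given in the sources used here. A single matrix was deposited by the authors, of relative expression signal whose unit is not stated. Each of its 22 columns sums to 228405 and the values are not whole, so the depth behind a value is unknown and no counting interval is given. Of 24371 rows, 27 with date-like names (25 names, at most 0.097% of any library) were left out.

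Values were analysed as log2(value + 1) in limma 3.58.1 (R 4.3.3) with a trended prior, 1 mean for each of 11 groups and 11 residual degrees of freedom over all 22 libraries. Genes at 1 or more in at least 2 of the 6 P28 libraries were tested (11126). The members and gene lists were chosen with earlier results of these data known. Named were the sorting antigens, Tyrobp, the 12 largest differences on each side among called genes whose immune libraries lay apart from the other 4 and whose higher side reached 10, the 6 largest on each side of each interaction at that level, up to 4 members of a list and those against it, and the 10 largest ratios between the immune libraries in each direction; further list members were named after their values were seen. The fit had no pairing. A paired fit, with libraries of 1 description code as a block, was an alternative: between fractions, deviations of such libraries from their group means correlated at 0.155 to 0.164 at P28, 0.373 to 0.605 at P7, 0.202 to 0.238 at E16.5 and -0.0158 at E18.5. Alternatives were another pseudocount, filter, scaling (size factors), set of libraries and threshold on the difference, the paired fit and leaving out each library. The fit was also run on simulated data in which every group had the same spread for a gene. Those data could not show how calls hold where the immune libraries stand further apart than the others. Figures were drawn with matplotlib 3.10.9. Some genes are not reported here.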

Additional observations from a re-analysis of the deposited data

Results flagged for a closer look

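The immune difference at P28 departed from that at P7 in 223 genes on the higher and 487 on the lower side by the interaction test. Its largest named genes on the higher side were the histone genes Hist1h2bk (5.27), Hist1h2bj (4.30), Hist1h2bf (4.29), Hist1h1b (4.11), Hist1h3g (4.09) and Hist1h3b (4.02). Those of the same histone type can be near copies whose reads are shared. Hist1h2bk was at 546 in immune replicate 1 and 49.5 in replicate 2 at P28, and at 41.2 and 27.5 at P7. Its level in the endothelial libraries went from 97.9 and 50.1 at P7 to 13.7 and 6.73e-06 at P28. In the epithelial libraries it went from 38.7 and 16.9 to 8.68 and 5.13. The largest named genes on the lower side were Scgb3a1 (-5.34), Scgb3a2 (-4.95), Sec14l3 (-4.77), Cbr2 (-4.61), Scgb1a1 (-4.44) and Mfap4 (-4.33). Of these the secretoglobins and Cbr2 are known from club cells.

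The immune difference at P28 departed from that at E16.5 in 957 genes on the higher and 1532 on the lower side. The largest named genes were Chil3 (6.39), Fabp1 (4.72), Hist1h2bk (4.48), Atp6v0d2 (4.47), Il1b (4.40) and Hist1h2ac (4.29) on the higher side, and Lyz2 (-7.92), Lcn2 (-7.10), Sftpc (-6.73), Sfta2 (-6.41), Sftpb (-6.31) and Slc34a2 (-6.28) on the lower side. The last 6 are products of lung epithelium, Lyz2 also of macrophages and Lcn2 also of neutrophil precursors. At E16.5 Lcn2 was at 49.8 and 75.1 in the immune and 2.11 and 1.75 in the epithelial libraries. Hist1h2bk was then at 118 and 129 in the immune, 202 and 140 in the endothelial and 77.9 and 28.7 in the epithelial libraries. Immune replicate 2 at P28 (49.5) lay below both of those immune values. Age and sequencing run cannot be told apart in either test.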

How the results depend on the processing

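Of 160 genes named for the comparison with the mean of the other fractions, 130 kept their direction and call in every alternative run; no gene reversed. Counts of genes higher and lower moved as follows. With a minimum value of 5 (6031 genes tested) they were 1721 and 1741 against the mean, 995 and 2214 against the endothelial and 2585 and 1080 against the epithelial libraries, and 603 and 993 in the interaction with E16.5. Requiring a difference beyond 1 gave 738 and 900, 559 and 1255, 985 and 730, 47 and 330 in the same order, and 1 and 15 against P7. A fit of only the libraries compared gave 1901 higher against the mean (3 residual degrees of freedom), 1069 higher against the endothelial libraries and 84 higher against P7. Size factors gave 2707 higher against the endothelial libraries and 989 lower against P7. Against P7, a pseudocount of 0.1 gave 354 and 979, no filter (18797 genes) 141 higher, the paired fit (replicate block) 624 and 757, and the fit without both E16.5 libraries whose description carries another age 100 higher; without those 2 libraries 497 were higher against E16.5. Leaving out 1 library at a time gave 2533 to 2921 higher and 2525 to 3283 lower against the mean, 1322 to 2003 and 2855 to 3946 against endothelial, 3478 to 4061 and 1672 to 2122 against epithelial, 38 to 1499 and 183 to 1951 against P7, and 396 to 1627 and 1071 to 2224 against E16.5. Against P7 the fewest higher genes were without immune replicate 2 of P7, the fewest lower without immune replicate 1 of P28, and the most of both without immune replicate 2 of P28. None of the 12 genes named for the P7 interaction kept its call in every alternative, and 10 of the 12 for E16.5 did. Beside the results where it is given above, the paired fit changed no other call of a named gene. The cause of these changes was not tested. Since depth is unknown, low values have no stated precision.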
